A study of Mus musculus with 16 samples.

Results

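Zbtb16, Id4, Foxo1, Taf4b, Nanos2, Nanos3, Plvap, Eomes and Pax7 are genes known as regulators or markers of undifferentiated spermatogonia, and their transcripts were measured in cultured mouse male germline stem cells. The 9 genes were taken by name, with earlier results of these data known, and they are 9 of the 27128 genes measured. A mean of at least 1 CPM (counts scaled to a common library size, here with TMM factors) over the 12 RNA libraries was required for the comparisons. Of the 9 genes, 8 passed, as did 14301 of all genes. Pax7, with a mean of 0.666 CPM, did not pass and is left out of the counts of called genes.

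Undifferentiated spermatogonia are the mitotic germ cells of the testis that include the spermatogonial stem cells. They renew themselves under GDNF from the somatic niche, and they leave this state when retinoic acid brings on differentiation and the receptor KIT. Several nuclear and RNA-binding regulators act in this choice: the repressor ZBTB16 (PLZF) and the forkhead factor FOXO1 are needed for stem cell maintenance, ID4 holds basic helix-loop-helix E proteins from DNA, and NANOS2 represses mRNAs of differentiation.

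All cells were of B6;CBA-Tg(Pou5f1-EGFP)2Mnn/J mice, in which a Pou5f1 (Oct4) transgene drives EGFP. Germ cells positive for the reporter and negative for KIT, labelled postnatal day 5.5, were sorted and grown in StemPro-34 SFM, a serum-free medium, to which the growth factors GDNF, EGF and bFGF were added. In a feeder-removal series, 1 library came from cells on MEF (mouse embryonic fibroblast) feeders, called day 0, and 1 each from day 4 and day 9 after the move to Matrigel, a basement membrane extract. In a Matrigel density experiment, epithelial-like cells had grown at 0.1 µg/cm2 and mesenchymal-like cells at 10 µg/cm2. The sorted series held Oct4-GFP low, mid and high cells (GFP-low, GFP-mid and GFP-high below) grown at 10 µg/cm2. In the inhibitor series, cells on MEF received DMSO or UNC0638, an inhibitor of the histone methyltransferases G9a and GLP. UNC0638 was given at 0.5, 1 or 2 µM for 48 hours, and no duration was recorded for DMSO. With 1 library in every RNA group, no spread between replicates is known and no p-values are reported. The number of animals and of independent cultures behind a library is not stated in the labels, and 4 ATAC-seq libraries that the labels list were not analysed here.

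Library totals ran from 4335185 to 12019651 expected counts, and a floor of 3 counts was worth 0.238 to 0.724 CPM. The germ cell identity of the cultures was checked with a list of germ cell genes such as Ddx4 and Dazl, of which 19 of 20 were matched and tested, and its summed level was 5252 to 10289 CPM. A list of 15 fibroblast genes summed to 84.8 to 5126 CPM and was highest in the mesenchymal-like library, with DMSO next at 2673 CPM. A list of 8 macrophage genes summed to 1743 CPM in GFP-low, 1549 CPM in GFP-mid and 207 CPM in GFP-high, against 7.52 to 40.8 CPM in the other 9 libraries. The experiments also stood apart as wholes: between day 0 and DMSO, both from feeder culture without inhibitor, 19.4% of the 14301 genes differed at least 2-fold, more than in any comparison within an experiment. An experiment and a batch that it may have formed cannot be told apart, so the comparisons below are within experiments unless stated.

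Per unit of transcript length, the genes fell into 3 levels. In TPM (transcript abundance scaled to gene length and to a fixed sum per library), Taf4b had the highest median over the 12 libraries, 59.9, followed by Nanos3 at 35.2, Foxo1 at 35.0 and Zbtb16 at 32.4. Plvap at 19.6, Nanos2 at 13.5 and Id4 at 9.86 were intermediate, and Eomes at 0.59 and Pax7 at 0.165 lay near the floor. The leading gene of the set differed between libraries, by a small margin in some (Taf4b at 77.1 and Nanos3 at 74.4 TPM at day 4). It was Nanos3 at day 0 (73.7 TPM, with Taf4b at 72.8), Zbtb16 in GFP-low (94.3 TPM) and GFP-mid (79.0 TPM), Foxo1 in GFP-high (138 TPM) and at 2 µM UNC0638 (58.4 TPM), and Taf4b in the other 7 libraries.

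**Figure D1:**
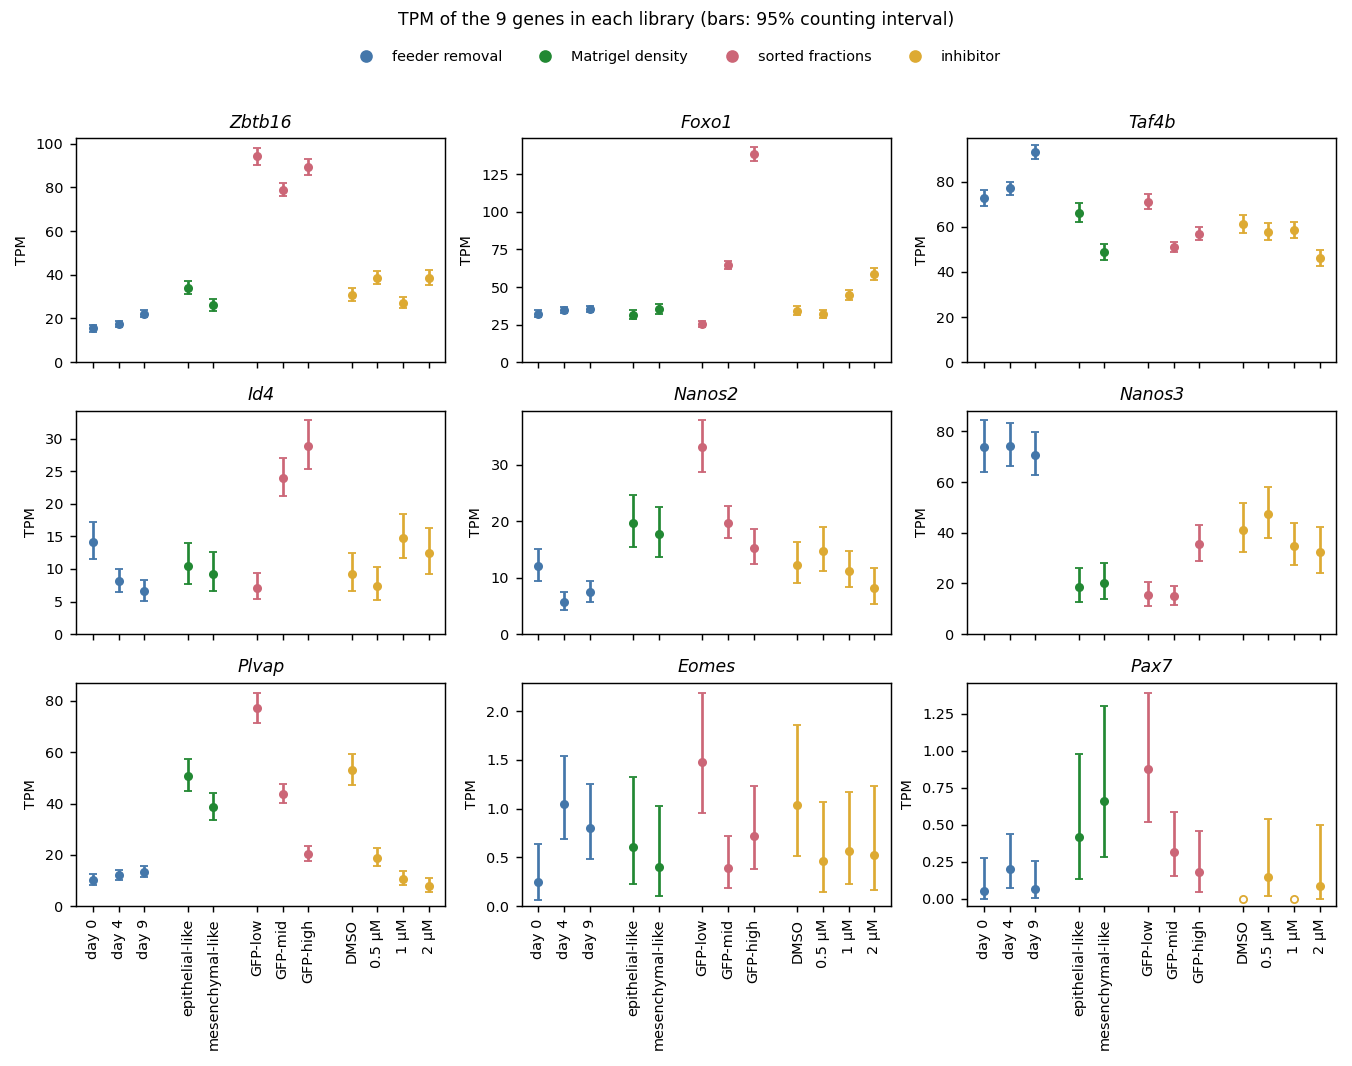
TPM (y axis, own scale per panel) of each of the 9 genes in each of the 12 libraries (x axis, coloured by experiment); points are single libraries, bars the exact 95% counting interval, open circles 0 counts. Zbtb16 is highest in the 3 sorted fractions, Nanos3 in the 3 feeder-removal libraries, Foxo1 in GFP-high and Plvap in GFP-low.

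The genes also differed in how much they varied. The highest library was 9.47 times the lowest for Plvap on the CPM scale, 6.12 times for Zbtb16, 5.87 for Nanos2, 5.22 for Nanos3, 4.93 for Foxo1 and 4.31 for Id4, and 1.81 times for Taf4b. As a range of log2(CPM + 1) over the 12 libraries, Plvap at 3.11 exceeded 94.4% of the 14301 genes and Zbtb16 at 2.59 exceeded 90.4%. Taf4b at 0.85 exceeded 22.0%, against a median of 1.29 over all genes. Most of these ranges include differences between experiments. When the 12 libraries were ordered by CPM, 6 of the 11 neighbouring pairs differed beyond counting error for Zbtb16, 4 for Foxo1, 3 for Plvap, 2 for Taf4b and 1 each for Id4, Nanos2 and Nanos3. For Eomes and Pax7 no neighbours differed beyond it.

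The sorted fractions held the most genes past 2-fold. A ratio here is log2 of (CPM + 1), its interval is the 95% Clopper-Pearson interval of the read split without the pseudocount, and a gene was called at 2-fold or more. Of the 8 genes, 1 was called at day 4 against day 0 (Eomes, higher), where 2.28% of all 14301 genes were called and 1.25% were called higher. At day 9, 1 was called (Id4, lower), with 2.6% of all genes called and 0.979% called lower. None was called between the mesenchymal-like and epithelial-like libraries, where 12.5% of all genes were.

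In GFP-mid against GFP-low, 3 of 8 were called (Id4 and Foxo1 higher, Eomes lower) with 4.07% of all genes called, 3.38% higher and 0.685% lower. In GFP-high against GFP-low 4 of 8 were called (Id4 and Foxo1 higher, Nanos2 and Plvap lower) with 9.54% of all genes, 6.94% higher and 2.59% lower. GFP-high against GFP-mid gave 3 of 8 (Foxo1 and Nanos3 higher, Plvap lower) with 2.85%, 1.32% higher and 1.52% lower. These 3 comparisons share libraries. The median ratio of the 8 genes was -0.43 for GFP-mid and -0.35 for GFP-high against GFP-low, beside -0.01 and -0.02 over all genes.

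Plvap alone was called at each UNC0638 dose, and it was lower each time. The share of all genes called was 3.71% at 0.5 µM, 6.71% at 1 µM and 7.01% at 2 µM, and the share called lower was 2.13%, 4.12% and 3.59%. These 3 comparisons share the DMSO library. The median ratio of the 8 genes was -0.08, -0.13 and -0.33 at the rising doses, beside -0.01, -0.00 and -0.02 over all genes. Between experiments, DMSO against day 0, 2 of 8 were called (Eomes and Plvap, higher), with 12.2% of all genes called higher.

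**Figure D2:**
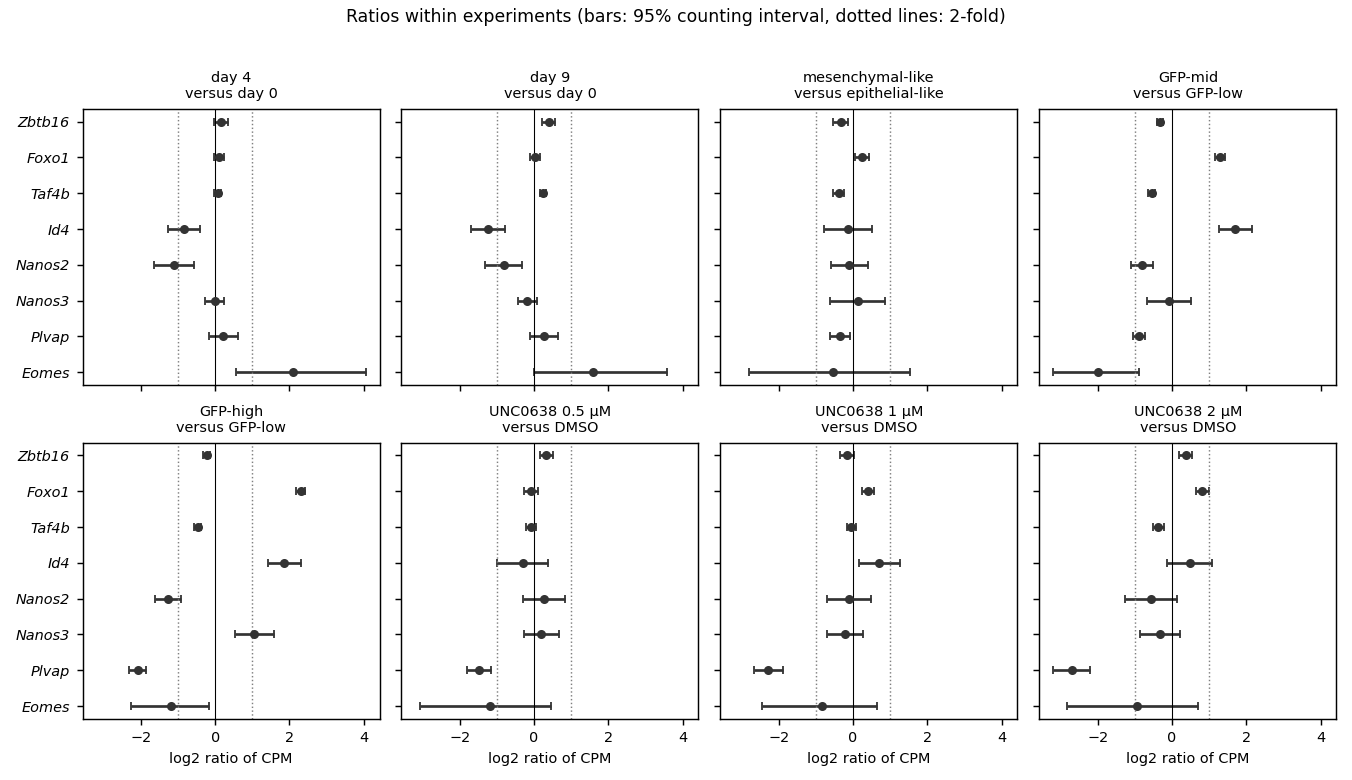
Log2 ratio of CPM without pseudocount (x axis) for the 8 genes that passed the filter (y axis), 1 panel per comparison within an experiment; points are ratios of 2 libraries, bars 95% Clopper-Pearson intervals of the read split, dotted lines 2-fold. Foxo1 and Id4 lie to the right of 2-fold and Plvap to the left in GFP-high versus GFP-low, and Plvap lies to the left at all 3 UNC0638 doses.

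The start regions of 6 of the 9 genes were in the RefSeq promoter table (build GRCm38.p6), and 4 are shown because these genes moved in different directions with the Oct4-GFP level. Each sequence is the 250 bases before the annotated start, 5′ to 3′ on the gene's strand, with CG dinucleotides in capitals. Foxo1 is at chr3:52268087-52268336 on the plus strand, Id4 at chr13:48260866-48261115 on the plus strand, Nanos2 at chr7:18987274-18987523 on the plus strand and Nanos3 at chr8:84176553-84176802 on the minus strand.
Foxo1: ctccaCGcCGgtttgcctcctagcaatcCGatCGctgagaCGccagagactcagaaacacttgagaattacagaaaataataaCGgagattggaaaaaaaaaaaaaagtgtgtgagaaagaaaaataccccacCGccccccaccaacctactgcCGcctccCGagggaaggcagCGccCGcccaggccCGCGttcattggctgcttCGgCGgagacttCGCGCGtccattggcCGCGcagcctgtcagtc
Id4: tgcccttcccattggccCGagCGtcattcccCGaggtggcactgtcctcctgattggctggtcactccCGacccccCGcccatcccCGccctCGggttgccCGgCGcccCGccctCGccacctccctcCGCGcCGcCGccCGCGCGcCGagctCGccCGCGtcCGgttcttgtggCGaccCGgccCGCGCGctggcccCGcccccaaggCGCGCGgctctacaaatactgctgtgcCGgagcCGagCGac
Nanos2: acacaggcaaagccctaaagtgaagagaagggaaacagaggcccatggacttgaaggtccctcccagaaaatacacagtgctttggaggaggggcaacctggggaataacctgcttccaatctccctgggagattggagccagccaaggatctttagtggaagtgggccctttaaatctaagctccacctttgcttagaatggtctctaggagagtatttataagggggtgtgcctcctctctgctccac
Nanos3: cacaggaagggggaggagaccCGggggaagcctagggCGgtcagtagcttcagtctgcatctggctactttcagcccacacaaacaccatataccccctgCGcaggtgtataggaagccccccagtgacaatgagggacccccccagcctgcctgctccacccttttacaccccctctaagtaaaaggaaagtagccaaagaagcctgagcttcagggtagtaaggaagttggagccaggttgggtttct
The Foxo1 and Id4 regions held 20 and 35 CG dinucleotides, more than 82.1% and 97.0% of 32851 mouse promoters of this length, whose median was 6. The Nanos2 region held 0 and the Nanos3 region 3, more than 29.0% of promoters. The E-box letters CANNTG, which read the same on both strands in this form and which E proteins are known to bind, occurred at 2 places in the Nanos3 region and 1 in the Foxo1 region. They occurred in neither the Id4 nor the Nanos2 region, and 66.2% of all promoters held at least 1. The forkhead letters GTAAACA, searched on both strands, were in none of the 6 regions and in 3.17% of all promoters.

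Foxo1, which encodes a forkhead transcription factor kept out of the nucleus by PI3K and AKT signalling, was graded with Oct4-GFP. It was at 75.4 CPM in GFP-low, 184 CPM in GFP-mid and 372 CPM in GFP-high. The log2 ratio to GFP-low was 1.28 (interval 1.16 to 1.42) in GFP-mid and 2.29 (2.18 to 2.43) in GFP-high, folds of 2.44 and 4.93. GFP-low was the lowest of the 12 libraries for this gene and GFP-high the highest. The step from GFP-mid to GFP-high had a ratio of 1.01 (0.94 to 1.09), at the threshold. Pou5f1, whose transgenic reporter was sorted on, was at 83.9, 176 and 367 CPM in the same fractions. Lists of other cells differed between them too. The fibroblast list was at 84.8, 116 and 205 CPM over the rising fractions, with 7 of 15 genes called higher in GFP-high against GFP-low, among them Col1a1 (22.2 to 104 CPM). The macrophage list fell from 1743 to 207 CPM, with 8 of 8 genes called lower. Their part in the values of Foxo1, Id4, Nanos2, Nanos3 and Plvap in these fractions was not tested.

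With the inhibitor, Foxo1 was at 101 CPM in DMSO, 94.9 CPM at 0.5 µM, 134 CPM at 1 µM and 178 CPM at 2 µM UNC0638. The ratio to DMSO was -0.08 (-0.27 to 0.10), 0.41 (0.25 to 0.58) and 0.82 (0.66 to 0.99), so the upper doses lay above DMSO beyond counting error but under 2-fold. The fibroblast list was at 2673, 865, 357 and 434 CPM in the same libraries, with 10, 14 and 13 of its 15 genes called lower at the rising doses, and its part in the Foxo1 values was not tested. Pou5f1 had no such order there, with 43.9, 54.1, 43.5 and 46.7 CPM. In the feeder-removal series Foxo1 stayed between 95.5 and 102 CPM, and the day 9 ratio was 0.01 (-0.12 to 0.15). It was at 102 CPM in the epithelial-like and 120 CPM in the mesenchymal-like library, a ratio of 0.23 (0.04 to 0.42).

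The FOXO and PI3K list held 8 further genes, and all were tested. None was called at either time after feeder removal, in the sorted fractions or at any inhibitor dose, where 2.28% to 9.54% of all genes were. In the mesenchymal-like library, where 10.7% of all genes were called higher, 2 of the 8 were. These were Akt1 (58.4 against 23.5 CPM), a kinase that phosphorylates FOXO proteins, and Sgk (235 against 77.7 CPM), the older symbol of Sgk1, a kinase with FOXO substrates too. Foxo3, listed under its older symbol Foxo3a, was at 65.8, 51.2 and 51.8 CPM in GFP-low, GFP-mid and GFP-high. It therefore did not show the grading of Foxo1 in those 3 libraries. On the length-scaled TPM scale, Foxo1 at 25.3 and Foxo3a at 38.7 were within 2-fold of each other in GFP-low, whereas in GFP-high Foxo1 was at 138 and Foxo3a at 33.9.

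**Figure D3:**
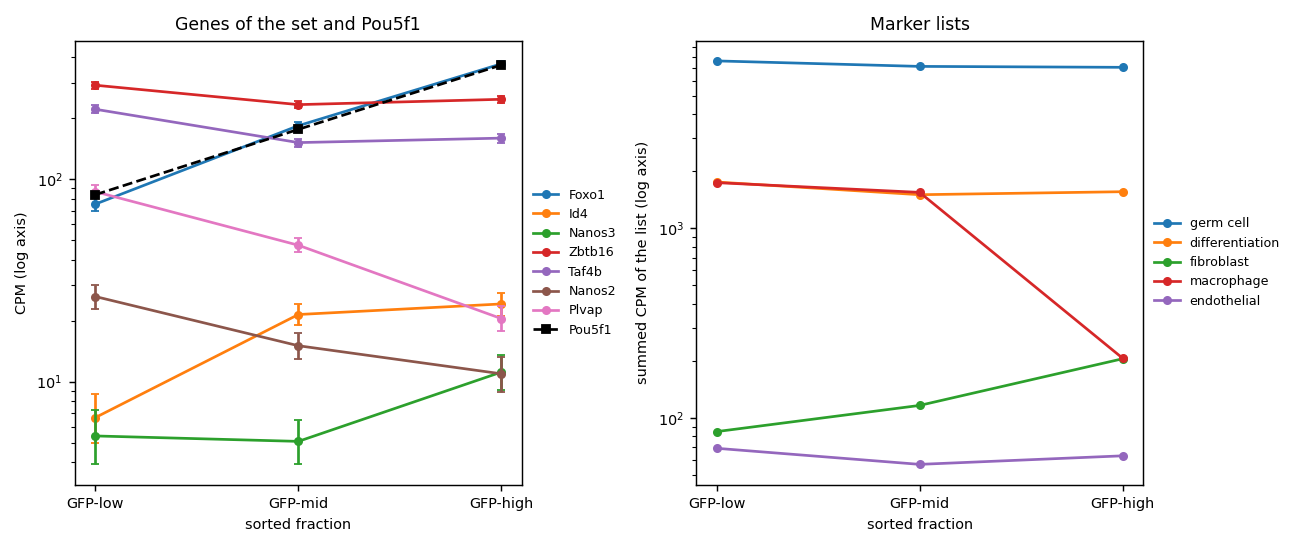
Left, CPM (log axis) of 7 genes of the set and of Pou5f1 in the 3 sorted fractions (x axis), with exact 95% counting intervals; right, summed CPM (log axis) of 5 marker lists in the same libraries. Foxo1 runs from 75.4 to 372 CPM beside Pou5f1 at 83.9 to 367 CPM, Plvap from 86.8 down to 20.5 CPM, and the macrophage list from 1743 down to 207 CPM.

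Id4, an inhibitor of E proteins that marks stem cells among spermatogonia, was also higher in the brighter fractions. It was at 6.65 CPM in GFP-low, 21.5 CPM in GFP-mid and 24.2 CPM in GFP-high, from 53, 271 and 228 counts. The ratios to GFP-low were 1.55 (1.26 to 2.14) and 1.72 (1.43 to 2.32). GFP-mid and GFP-high were above all of the other 10 libraries and did not differ from each other beyond counting error (0.17, -0.09 to 0.43).

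After feeder removal Id4 was lower: 13.2 CPM at day 0, 7.45 CPM at day 4 and 5.61 CPM at day 9, from 102, 88 and 69 counts. The ratio was -0.75 (-1.26 to -0.40) at day 4 and -1.10 (-1.70 to -0.78) at day 9, the latter -0.78 with a pseudocount of 5 and then not called. Among the inhibitor libraries it was at 8.58 CPM in DMSO and 6.93, 14.0 and 11.9 CPM at the rising doses. Only the 1 µM interval lay above 0 (0.64, 0.15 to 1.27). The epithelial-like and mesenchymal-like libraries had 10.8 and 9.90 CPM, from 46 and 41 counts, a difference within counting error.

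ID4 acts on E proteins. In GFP-high against GFP-low, where 9.54% of all genes were called, so was 1 of the 6 tested genes of the ID and E protein list. This was Tcf3, listed under its older symbol Tcfe2a and encoding the E protein E2A, at 114, 329 and 418 CPM in GFP-low, GFP-mid and GFP-high. It was called higher in GFP-mid too, and at 1 µM UNC0638 (372 against 172 CPM in DMSO), with 333 CPM at 2 µM. Of all genes, 3.38% were called higher in GFP-mid and 2.59% at 1 µM. Id1 and Id3 were called in no comparison within an experiment. Id3 was at 61.4, 51.8 and 45.8 CPM over the rising fractions. Id2 was called higher at day 9 (1.46 against 0.13 CPM) and in the mesenchymal-like library (4.10 CPM against 0), where 1.62% and 10.7% of all genes were called higher. The library with less was under the floor both times, with 1 count at day 0 and 0 in the epithelial-like library.

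Zbtb16, encoding the zinc finger repressor PLZF, set the feeder-removal and sorted series apart from the other libraries. It was at 47.6, 53.3 and 62.5 CPM at days 0, 4 and 9, below the other 9 libraries at 84.5 to 291 CPM. It was at 291, 234 and 248 CPM in GFP-low, GFP-mid and GFP-high, above the other 9 libraries, whose highest value was 122 CPM. Such separation was common: 27.6% of all genes had feeder-removal ranges apart from the other 9, 13.2% had all 3 feeder-removal libraries below the other 9, and 5.85% had all 3 sorted fractions above. The lowest sorted fraction was 2.56 times the unsorted mesenchymal-like library, grown at the same Matrigel density and at 91.3 CPM. The macrophage list was at 40.8 CPM in that unsorted library and the fibroblast list at 5126 CPM, and their part in the difference was not tested.

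Within experiments Zbtb16 stayed under 2-fold. The ratio was 0.16 (-0.02 to 0.35) at day 4 and 0.39 (0.21 to 0.58) at day 9. It was -0.32 (-0.40 to -0.24) in GFP-mid and -0.23 (-0.31 to -0.15) in GFP-high against GFP-low. In the inhibitor series it was at 94.4 CPM in DMSO and 119, 84.5 and 122 CPM at 0.5, 1 and 2 µM, with no order by dose. The mesenchymal-like library had 91.3 CPM against 115 CPM in the epithelial-like one, a ratio of -0.33 (-0.53 to -0.13), but centring on the germ cell list moved it to 0.02.

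Taf4b, encoding a TFIID subunit enriched in gonads, varied least of the 8 genes. Its row carries a predicted transcript model. It was at 225, 236 and 264 CPM at days 0, 4 and 9, at 225 CPM in epithelial-like and 172 CPM in mesenchymal-like cells, and at 222, 152 and 160 CPM in GFP-low, GFP-mid and GFP-high. In DMSO it was at 189 CPM and with UNC0638 at 179, 183 and 146 CPM. No ratio within an experiment reached 2-fold. The ratios of largest size were -0.54 (-0.64 to -0.45) in GFP-mid and -0.47 (-0.57 to -0.37) in GFP-high. The ratio of -0.38 (-0.53 to -0.24) in the mesenchymal-like library became -0.03 when centred on the germ cell list.

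Of the 14 tested TFIID genes, 1 was called at day 4 and 1 at day 9 after feeder removal, where 2.28% and 2.6% of all genes were. None was called in the density experiment (12.5% of all genes), the sorted fractions (2.85% to 9.54%) or the inhibitor series (3.71% to 7.01%). The gene called at days 4 and 9 was Taf4, listed as Taf4a, which encodes the paralogue of TAF4B. It was at 2.59, 8.38 and 6.35 CPM at days 0, 4 and 9. On the TPM scale Taf4b exceeded Taf4a in all 12 libraries, from 8.03-fold at 2 µM UNC0638 to 74.3-fold at day 0, where Taf4a was at 0.98 TPM.

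Nanos2 and Nanos3 encode related RNA-binding proteins that act in germ cell maintenance, and their balance differed widely between libraries. Nanos2 was at 12.04, 5.70 and 7.45 TPM at days 0, 4 and 9, and Nanos3 at 73.7, 74.4 and 70.9 TPM. The epithelial-like and mesenchymal-like libraries had 19.7 and 17.8 TPM of Nanos2 and 18.6 and 20.1 TPM of Nanos3. In GFP-low, GFP-mid and GFP-high, Nanos2 was at 33.1, 19.8 and 15.3 TPM and Nanos3 at 15.3, 15.0 and 35.5 TPM. The TPM ratio of Nanos3 to Nanos2 was thus 6.12 to 13.0 in the feeder-removal series, 0.947 and 1.13 in the density experiment, and 0.463, 0.759 and 2.32 over the rising fractions. With DMSO and the 3 UNC0638 doses it was 3.35, 3.21, 3.11 and 3.98.

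**Figure D4:**
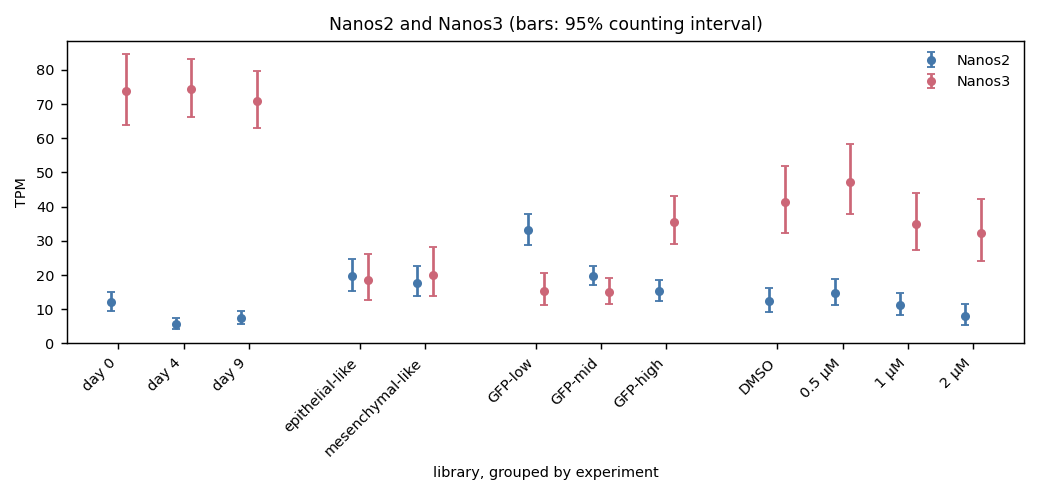
TPM (y axis) of Nanos2 and Nanos3 in each library (x axis, grouped by experiment); points are single libraries, bars the exact 95% counting interval. Nanos3 is above Nanos2 in the feeder-removal and inhibitor series and in GFP-high, and Nanos2 is above Nanos3 in GFP-low.

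On the CPM scale, Nanos2 was at 26.3 CPM in GFP-low, 15.0 CPM in GFP-mid and 10.9 CPM in GFP-high. The ratios to GFP-low were -0.77 (-1.10 to -0.52) and -1.20 (-1.62 to -0.92), the latter -0.98 with a pseudocount of 5. GFP-low was the highest of the 12 libraries. After feeder removal Nanos2 was at 9.59, 4.49 and 5.45 CPM, with ratios of -0.95 (-1.63 to -0.57) at day 4 and -0.72 (-1.31 to -0.32) at day 9, both short of 2-fold on the CPM + 1 scale, although day 4 was 2.14-fold lower without the pseudocount. On feeders it was at 9.78 CPM in DMSO and 11.7, 9.08 and 6.64 CPM at the rising doses, and all 3 intervals included 0.

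Nanos3 was at 5.39 CPM in GFP-low, 5.07 CPM in GFP-mid and 11.1 CPM in GFP-high, from 43, 64 and 105 counts. The ratio was -0.07 (-0.67 to 0.50) in GFP-mid and 0.93 (0.52 to 1.59) in GFP-high, opposite in sign to Nanos2 in GFP-high. The ratio of GFP-high to GFP-low was just short of 2-fold on the CPM + 1 scale, and past it (2.07-fold) without the pseudocount. It was also past 2-fold with scaling to total counts and with the deposited TPM. Against GFP-mid it was at 2-fold (1.00, 0.67 to 1.61). The feeder-removal libraries, at 23.3 to 26.4 CPM, lay above the other 9 at 5.07 to 16.9 CPM, as for 14.4% of all genes. The germ cell list was also highest there, at 9688 to 10289 CPM against 5252 to 7689 CPM, and after centring on that list the ranges of Nanos3 overlapped. Within that series and with the inhibitor no Nanos3 ratio differed from 0 beyond counting error.

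NANOS proteins recruit the CCR4-NOT deadenylase, and Pumilio proteins and DND1 act with them. Of the 11 tested genes of this partner list, 1 was called in GFP-high against GFP-low and at each of 1 and 2 µM UNC0638, and none at days 4 or 9 or in the density experiment. That is near the 9.54%, 6.71% and 7.01% of all genes called in those 3 comparisons. The gene was Nanos1, the third paralogue, at 24.7, 46.9 and 63.8 CPM in GFP-low, GFP-mid and GFP-high. In DMSO it was at 14.4 CPM and with UNC0638 at 25.4, 45.9 and 39.4 CPM. Dnd1 was at 221, 197 and 189 CPM in the fractions, within 2-fold.

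Plvap encodes a protein of the diaphragms of endothelial fenestrae and caveolae that also marks a subset of GFRA1-positive spermatogonia. It had the widest range of the 8 genes. In the inhibitor series it was at 59.3 CPM in DMSO, 21.4 CPM at 0.5 µM, 12.2 CPM at 1 µM and 9.16 CPM at 2 µM, from 297, 111, 70 and 40 counts. The ratios to DMSO were -1.43 (-1.80 to -1.15), -2.19 (-2.68 to -1.90) and -2.57 (-3.21 to -2.21), folds of 2.77, 4.85 and 6.47 in the direction of lower. The values were thus lower at each higher dose, with 1 library each.

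In the sorted fractions Plvap was at 86.8 CPM in GFP-low, 47.2 CPM in GFP-mid and 20.5 CPM in GFP-high. The ratio to GFP-low was -0.86 (-1.04 to -0.72) in GFP-mid and -2.03 (-2.32 to -1.85) in GFP-high, a level 4.24-fold lower. The order of the fractions was therefore the reverse of that of Foxo1. The CPM ratio of Foxo1 to Plvap went from 0.869 in GFP-low to 3.90 in GFP-mid and 18.1 in GFP-high, and from 1.70 in DMSO to 4.44, 11.0 and 19.4 at the rising doses; it compares library changes and not levels, since CPM is not scaled to length. In the other experiments Plvap moved little: 11.5, 13.5 and 13.8 CPM at days 0, 4 and 9, and 63.1 CPM in epithelial-like against 49.5 CPM in mesenchymal-like cells. The latter ratio was -0.34 (-0.62 to -0.08), and 0.00 when centred on the germ cell list.

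Between experiments, Plvap was at 59.3 CPM in DMSO and 11.5 CPM at day 0, both on feeders, a ratio of 2.27 (2.02 to 2.72). These 2 libraries, neither with inhibitor, thus differed 5.14-fold, beside differences of 2.77-fold, 4.85-fold and 6.47-fold at the 3 doses within the inhibitor series. The fibroblast list was at 253 CPM at day 0 and 2673 CPM in DMSO, with 12 of its 15 genes called higher, and its part in this difference was not tested. A further list of undifferentiated genes had 9 of 29 tested genes called higher and 2 lower. In that comparison 19.4% of all genes were called and 12.2% were called higher. The list's median ratio was 0.58 beside 0.01 over all genes. Gfra1 was at 35.5 CPM at day 0 and 132 CPM in DMSO.

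Markers of other cells moved with Plvap in part. In the inhibitor series the fibroblast list was lower at every dose, as given beside Foxo1, from 2673 CPM in DMSO to 434 CPM at 2 µM, and its lowest value was 357 CPM at 1 µM. In the density experiment the same list was at 256 CPM in the epithelial-like and 5126 CPM in the mesenchymal-like library, with 14 of 15 genes called higher, while Plvap was not higher. In the sorted fractions the list ran opposite to Plvap, with 7 of 15 genes called higher in GFP-high against GFP-low and a median ratio of 0.71. Its part in the Plvap values of the inhibitor series was not tested. In bulk RNA, fewer cells of a type and less RNA per cell cannot be told apart.

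In the sorted fractions all 8 macrophage genes were called lower in GFP-high against GFP-low, led by Lyz2, listed under its older symbol Lyzs, at 1524, 1353 and 182 CPM. That list stayed at 8.67 to 12.4 CPM through the inhibitor series. Of 12 endothelial genes, 6 passed the filter, and the list summed to 42.0 to 69.2 CPM over the 12 libraries. The endothelial cadherin gene Cdh5 was at 0 to 1.37 CPM, and Tie1, Emcn and Cldn5 were below 1 CPM in every library. In GFP-high against GFP-low, 2 of the 6 tested genes were called lower, as were Plvap and 2.59% of all genes. They were Kdr (7.27 to 1.70 CPM), a VEGF receptor gene, and Ramp2 (15.9 to 6.05 CPM). Tek, an angiopoietin receptor gene, was called higher (2.63 to 8.70 CPM). With UNC0638 no endothelial gene was called lower, and Vwf was called higher at 0.5 and 2 µM, from 0 counts in DMSO to 8 and 5.

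**Figure D5:**
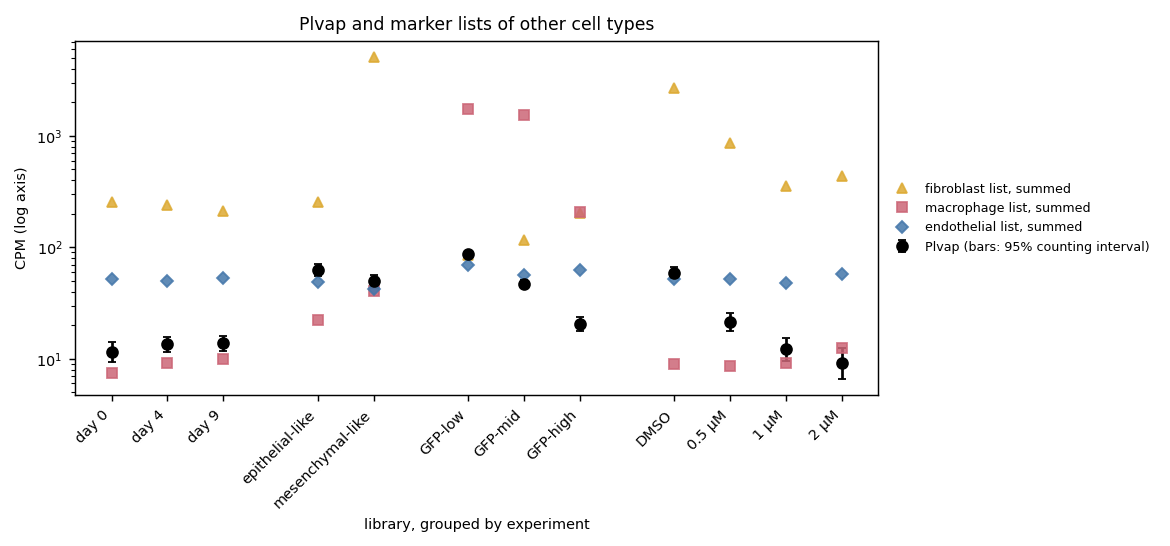
CPM on a log axis (y) of Plvap, with exact 95% counting intervals, and summed CPM of the fibroblast, macrophage and endothelial lists in each library (x axis, grouped by experiment). Plvap runs from 59.3 to 9.16 CPM beside the fibroblast list in the inhibitor series, and lies at 49.5 CPM where that list peaks at 5126 CPM.

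Eomes, a T-box transcription factor gene expressed in a subset of undifferentiated spermatogonia, had 4 to 26 counts per library. It had 4, 26 and 19 counts at days 0, 4 and 9, or 0.52, 2.20 and 1.55 CPM. The day 4 ratio of 1.08 (0.56 to 4.06) rests on the 4 counts at day 0. In GFP-low, GFP-mid and GFP-high it had 25, 10 and 13 counts, or 3.13, 0.79 and 1.38 CPM, with ratios of -1.21 (-3.21 to -0.88) and -0.80 (-2.27 to -0.16). In the density and inhibitor experiments it had 4 to 11 counts and no interval excluded 0. All Eomes calls were lost with a pseudocount of 5.

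Pax7, a paired-box gene of muscle satellite cells and of rare spermatogonia, had 0 to 18 counts. It had 18 counts in GFP-low, 10 in GFP-mid and 4 in GFP-high, or 2.26, 0.79 and 0.42 CPM. The ratio of GFP-high to GFP-low was -1.19, with a counting interval of -4.43 to -0.81. It had 5 and 8 counts in the density libraries and 0 to 6 in the feeder-removal and inhibitor libraries. Of 7 muscle genes, Myf5 was at 0 in all 12 libraries and Myod1 in 11, with 7 counts in GFP-high, but others were detected. Myog was at 6.10 to 7.96 CPM in the feeder-removal libraries and 0.483 to 3.67 CPM in the other 9, and Chrna1 was at 2.01 to 12.1 CPM over all 12. Tbx21, a T-box gene of T and NK cells and a relative of Eomes, stayed below 1 CPM in every library.

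A further list of 30 genes of undifferentiated spermatogonia, chosen without the 9, set these values in context, and 29 passed the filter. In the feeder-removal series none was called at day 4 or day 9, where 2.28% and 2.6% of all genes were. In GFP-high against GFP-low, 6 were called higher and 9 lower, where 6.94% and 2.59% of all genes were. The median ratio was -0.05 beside -0.02 over all genes, so the list split rather than moved together. The lower genes included the GDNF receptor subunits Gfra1 (176 to 58.5 CPM) and Ret (705 to 316 CPM) and the GDNF-induced factors Etv5 (614 to 222 CPM) and Bcl6b (348 to 173 CPM). Factors known to respond to GDNF did not all do so: Pou3f1 was called higher (3.13 to 10.9 CPM), and Lhx1 was not called (50.3 and 33.8 CPM). The higher genes included Neurog3 (4.76 to 14.9 CPM), a progenitor transcription factor, Egr4 (31.0 to 264 CPM), Upp1 (12.2 to 44.1 CPM) and Utf1 (2.01 to 14.6 CPM). Plvap and Nanos2 thus had the direction of the 9 lower genes in that comparison. Foxo1 and Id4 had that of the 6 higher ones, Pou3f1 as well as Neurog3.

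The 8 tested differentiation genes had a median ratio of 0.77 in GFP-high against GFP-low, beside -0.02 over all genes. Beside 6.94% of all genes, 3 of these 8 were called higher. These were Kit (62.3, 74.3 and 130 CPM over the rising fractions), the receptor gene by whose product cells were first excluded, the retinoic acid target Stra8 (67.2, 133 and 179 CPM) and Crabp1 (57.7, 96.8 and 132 CPM), a retinoic acid binding protein gene. Under 2-fold but beyond counting error, Ccnd2 (-0.90, -0.95 to -0.85) and Sohlh2 (-0.55, -0.63 to -0.46) were lower in GFP-high. Dnmt3b (0.87, 0.74 to 1.01) and Sohlh1 (0.67, 0.56 to 0.79) were higher in the same way. With UNC0638, 1 of the 8 was called, Stra8, lower at 0.5 µM (12.7 against 30.5 CPM). Of the 29 undifferentiated genes, Neurog3 was called higher at all 3 doses (17.5, 17.8 and 11.9 against 5.39 CPM in DMSO) and Egr4 at 1 and 2 µM (595 and 644 against 219 CPM). Of all genes, 1.58%, 2.59% and 3.42% were called higher at the rising doses. None of the 29 was called lower at any dose, where 2.13%, 4.12% and 3.59% of all genes were.

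The genes most like each called member were found by the root mean square difference of log2(CPM + 1) over the 12 libraries, each centred on its experiment's mean, among 11550 genes. For Foxo1 they were Atrn (0.143), Otud3 (0.151) and Smarca5 (0.153), against a median of 0.562 over the candidates. Atrn was at 49.9, 92.9 and 167 CPM in GFP-low, GFP-mid and GFP-high. For Id4 they were Mbd2 (0.163), Stk24 (0.163) and Btg3 (0.179), against 0.547. For Nanos2, Plb1 (0.120) and Elavl2 (0.122) were nearest, against 0.408. Elavl2, which encodes an RNA-binding protein, was at 168, 90.4 and 70.4 CPM over the rising fractions.

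The nearest genes to Plvap were Htr3b (0.300), Kl (0.339) and Wif1 (0.372), against a median of 0.732. This measure grows with a gene's own spread, which about the experiment means was 0.709 for Plvap and 0.255 for Nanos3. Wif1 was at 10.8 CPM in DMSO and 6.35, 5.58 and 3.21 CPM at the rising doses, and at 22.6, 13.7 and 10.5 CPM over the rising fractions. Htr3b and Kl were at most 5.31 and 4.01 CPM. For Nanos3 the nearest were Slc27a3 (0.100), Lrdd (0.111) and Cdh17 (0.117), against 0.330. Slc27a3 was at 26.6, 28.3 and 47.2 CPM over the rising fractions. For Eomes the nearest were Boc (0.138), Phf8 (0.171) and Hpn (0.177), against 0.420, and the few counts of Eomes limit what this likeness says.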

How the data were processed

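RNA was converted to libraries with a modified Smart-seq2 procedure, per the labels' protocols. The authors deposited 1 table per library with an expected count (RSEM's estimated count per gene), a TPM and an FPKM, per the file headers; the expected counts were not normalized, and the authors' deposited TPM are relative to gene length and to a fixed library total. The FPKM were not used. Trim Galore, RSEM and mm10 are listed in the submitters' processing notes, without versions; the aligner and annotation release are not given in the sources used here.

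Expected counts were rounded and scaled to CPM with TMM factors (0.912 to 1.07) from edgeR 4.0.16 in R 4.3.3. A gene was kept if its mean reached 1 CPM, and ratios of CPM + 1 between 2 libraries were called at 2-fold. Adding 1 shrinks the ratios of genes with few reads. No library had a replicate, so there was no test. Counting intervals are 95%, Clopper-Pearson for ratios and exact Poisson for levels. Reads carry no molecular identifiers, so intervals and the 3-count floor cover counting error only. All 108 values of the 9 genes were whole before rounding (tolerance 0.004), while 8.52% to 10.7% of the genes of a library were not, which is how reads shared between genes appear. The steps were tested on simulated counts.

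The 9 genes, the lists and the rules were chosen with earlier results of these data known. The genes named were the 9, list genes past 2-fold or defining their list, and the 3 nearest genes of each member called within an experiment, predicted loci excluded and 1 gene not reported here; values of Foxo3a, Id1, Id3, Dnd1 and Pou5f1 were added after they were seen. Older symbols were matched through RefSeq transcripts of GRCm38.p6: of 169 list genes, 160 matched by transcript, 7 by symbol and 2 (Rhox13, Gtsf1) not at all. As alternatives, the scaling was replaced by that of DESeq2 1.42.0, by library totals or by the deposited TPM, the pseudocount by 0.1 or 5, and the filter by none or by 10 CPM, and the germ cell list's median ratio was taken as 0. Python 3.11.15 with pandas 2.3.3, numpy 2.4.6, scipy 1.17.1 and matplotlib 3.10.9 was used.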

Additional observations from a re-analysis of the deposited data

How the results depend on the processing

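Of 630 recomputed ratios of the 9 genes, 606 stayed within the counting interval, 24 left it or had none, and no called ratio changed sign. The 90 ratios without a filter and the 70 with the 10 CPM filter equal the main ones, since a filter changes no ratio. Among them the 1 not counted as staying was Pax7 at 1 µM UNC0638, with 0 counts in both libraries and no interval. Foxo1 and Id4 in GFP-mid and GFP-high against GFP-low, and Plvap in GFP-high and at each UNC0638 dose, were called under every alternative run. Counts of called genes moved where they rest on few reads or lie near 2-fold. With a pseudocount of 5 the count was 0 at day 4, 0 at day 9, 1 for DMSO against day 0, 1 for GFP-high against GFP-mid, 3 for GFP-high against GFP-low (without Nanos2) and 2 in place of 3 for GFP-mid against GFP-low (without Eomes). With a pseudocount of 0.1 it was 2 at day 4, 2 at day 9 and 2 at 0.5 µM UNC0638, and GFP-high against GFP-low went from 4 to 6 (with Nanos3 and Eomes). With the deposited TPM it was 0 at day 4 and 1 for DMSO against day 0, and with a 10 CPM filter also 0 and 1, and both gave 2 for GFP-mid against GFP-low, since Eomes then was not tested. GFP-high against GFP-low gave 5 with total counts and the deposited TPM (with Nanos3) and 5 of 9 without a filter (with Pax7). Centring on the germ cell list, which shifted the median of all genes to 0.29 in the mesenchymal-like comparison, 0.55 for DMSO against day 0 and -0.14 at 0.5 µM, gave 2 at day 4, 1 for GFP-high against GFP-mid and 3 for DMSO against day 0 (with Zbtb16). The deposited TPM shifted that median to 0.13 at day 9 and 0.11 in GFP-high against GFP-low, and total counts to -0.12 in the mesenchymal-like comparison. Genes whose feeder-removal range stood apart from the other 9 libraries numbered 2 of 8 (Zbtb16 and Nanos3) as scaled here, where 27.6% of all genes did so, 3 (with Taf4b) under total counts and the deposited TPM, and 4 (Zbtb16, Foxo1, Nanos2 and Plvap) with that centring, an alternative chosen after seeing the data. No paired analysis was possible because each RNA group has 1 library, and for the same reason no library could be left out in turn.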
